A study of Mus musculus with 9 samples.

Results

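The double-strand break repair genes described here are 38 genes that act when both strands of DNA are cut. They were taken by name from a fixed list, and each had to be in both deposited tables, of 55536 and 12849 genes. The smaller table holds only genes that passed a filter on low counts, so the rule uses the counts to that extent. It uses no difference between genotypes, but the list was drawn up with earlier results of these data known. All 38 met the rule, which means that all 38 passed the filter. By role, 19 belong to homologous recombination or the Fanconi anaemia pathway, 8 to end joining, and 11 to break sensing and damage signalling. RNA was sequenced from B cells of the mouse spleen that the labels call pre-GC. That name places them before the germinal centre reaction, the phase in which B cells divide fast and mutate their antibody genes. Yet 5 genes that mark germinal centre B cells were detected in every library, with levels given below. 4 libraries came from wild-type cells (WT), and 5 came from p52Ki cells, titled p52ki/ki, which denotes a homozygous knock-in. p52 is a DNA-binding NF-kappaB subunit that is cut from the product of Nfkb2. No label or protocol used here states how the allele was made, how old the mice were, whether they were immunised or how cells were sorted, and the GC B cells that the design text also names were not analysed here. Nothing states that each library is a different mouse, so a p-value gauges only how far these samples spread, and that spread may be technical.

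Cells mend a double-strand break in 2 main ways. Homologous recombination cuts back the ends and copies the sister chromatid, so it works after DNA replication, and the Fanconi proteins feed crosslinked DNA into the same route. End joining ligates the ends directly in any phase of the cell cycle, and B cells also need it to assemble and switch their antibody genes. Sensor proteins bind the ends first, and kinases then pass the signal to the cell-cycle machinery.

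WT libraries held 7368604 to 7937579 counts and p52Ki libraries 4492160 to 6647650, so every WT library was deeper than every p52Ki library. Even so, more genes had a count in each p52Ki library (15504 to 16634) than in any WT library (14033 to 14793), and the TMM factors were 1.01 to 1.04 in p52Ki and 0.950 to 0.984 in WT. Levels are given in CPM, counts relative to the TMM-scaled library size. Nfkb2 itself was at 145, 175, 129 and 93.8 CPM across WT replicates 1 to 4, and at 202, 150.4, 198, 228 and 261 CPM across p52Ki replicates 1 to 5. The ranges overlapped, and its log2 fold change of 0.61 ± 0.21 (SE, adjusted p = 0.0987) did not pass the edgeR test. The Wald test of DESeq2 called it higher (adjusted p = 0.0293), as it did 7.77% of all genes. A knock-in need not change the level, so neither result checks the labels. 6 B cell markers summed to 9689 to 10930 CPM in WT and 11010 to 14480 CPM in p52Ki. The sums of T cell, NK cell and stromal markers did not pass 16.6 CPM in any library, with Col1a1 and Col3a1 at 0, and erythroid markers reached 13.3 CPM. Myeloid markers summed to 9.58 to 64.7 CPM in WT and 46.5 to 134 CPM in p52Ki, with S100a8 and S100a9 at 0. Plasma cell markers summed to 1436 to 1894 CPM in WT and 674 to 1256 CPM in p52Ki. Jchain carried most of that sum and fell, at -1.15 ± 0.23 (SE, adjusted p = 0.0116), while Sdc1 averaged 1.21 CPM in WT and 22.05 CPM in p52Ki (log2 fold change 4.17 ± 1.32, SE, adjusted p = 0.0762), and Prdm1 and Xbp1 did not pass either.

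Of the 38 break repair genes, 7 fell in p52Ki, 0 rose, and 31 did not pass the test. Those that fell were Brca1, Rad54l, Fancb and Fancd2 of the recombination and Fanconi class, and Rad50, Chek1 and H2afx of the signalling class. The test was the quasi-likelihood F test of edgeR with Benjamini-Hochberg adjustment over all 12849 genes, two-sided, at a threshold of 0.05. By the same rule 4.04% of all genes fell and 4.49% rose (8.53% in either direction), while 18.4% of the members fell. The median log2 fold change, p52Ki minus WT, was -0.56 over the 38 members and 0.03 over all genes tested, and 30 members had a value below 0. Every p52Ki library lay below every WT library for 6 members (15.8%), against 6.53% of all genes, and no member lay above, against 7.3% of all genes. At an unadjusted p under 0.05 there were 13 of the 38 members, against 21.4% of all genes, and 6 of the 13 missed the adjusted threshold. With every library thinned to the smallest total, 7 members fell as well; the part of the larger number of genes detected in p52Ki in these results was not tested. As the samples are bulk, fewer cells that express a gene and less RNA per cell cannot be told apart.

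The 31 members that did not pass were not shown to be unchanged. The 95% interval of the log2 fold change still included a 2-fold fall in 19 of them and lay above such a fall in 12. Low levels went with wide intervals: of the 10 members with a WT mean under 30 CPM, 1 passed, which was Fancb. Xrcc2 was the 1 member with a library at 0 counts, p52Ki replicate 1.

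**Figure D1:**
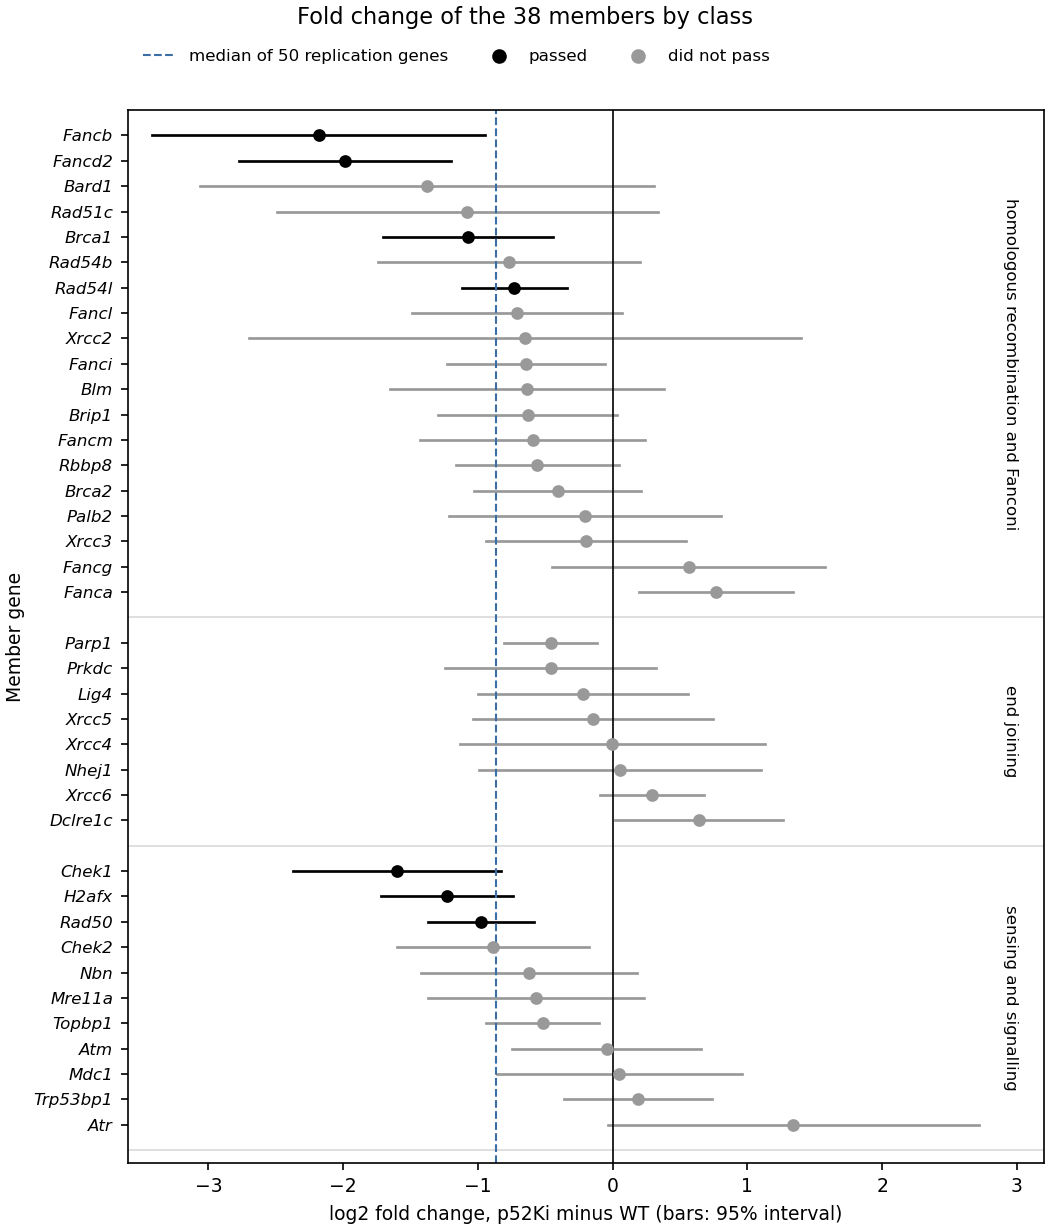
Log2 fold change of each of the 38 members, p52Ki (n = 5) minus WT (n = 4), on the x axis, with its 95% interval as a bar, grouped by class on the y axis; black marks the 7 members that passed the edgeR test and the dashed line is the median of 50 replication genes (-0.87). All 7 that passed lie left of 0, 9 members lie left of the dashed line, and the end joining members lie between -0.46 and 0.64.

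Upstream sequence is shown for 4 members, so that their promoters can be read beside their values: Brca1 and Rad54l, which fell, and Fanca and Mdc1, which did not pass. The RefSeq start is the start of the annotated gene for Brca1, Rad54l and Fanca, and lies a few bases upstream of it for Mdc1. RefSeq (GRCm38.p6) held a window from 250 bases before to 50 after the start for 30 of the 38 members; Rad54b, Xrcc2, Fancd2, Rbbp8, Prkdc, Rad50, Nbn and H2afx had no entry. The 120 bases before the start are printed on the strand of the gene, with capitals on each match to CCAAT, the letters bound by NF-Y, or to TTTCCCGC, TTTGGCGC, TTTCGCGC or TTTGCCGC, letters bound by E2F factors, both searched on both strands. The windows are chr11:101551956-101552075 (minus strand), chr4:116123691-116123810 (minus strand), chr8:123318577-123318696 (minus strand) and chr17:35841378-35841497 (plus strand).
Brca1: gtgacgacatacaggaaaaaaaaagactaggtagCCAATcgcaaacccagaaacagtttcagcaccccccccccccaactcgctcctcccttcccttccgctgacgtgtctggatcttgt
Rad54l: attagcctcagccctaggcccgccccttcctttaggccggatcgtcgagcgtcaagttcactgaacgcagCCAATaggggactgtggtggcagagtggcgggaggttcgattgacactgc
Fanca: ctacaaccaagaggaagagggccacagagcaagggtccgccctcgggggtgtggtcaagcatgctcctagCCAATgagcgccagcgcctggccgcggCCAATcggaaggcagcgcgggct
Mdc1: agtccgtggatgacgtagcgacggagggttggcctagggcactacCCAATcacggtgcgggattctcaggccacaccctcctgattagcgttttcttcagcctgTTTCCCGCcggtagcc

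Brca1 and Rad54l each held 1 CCAAT match in the whole window, Fanca held 2, and Mdc1 held 1 of each kind. Over the 30 members with a window, 16 (53.3%) held CCAAT, against 43.2% of tested genes with a window and 37.4% of all 32851 windows. The E2F letters were in 8 members (26.7%), against 4.82% of tested genes, 2.26% of all windows, 40% of replication genes and 3.7% of mitosis genes. None of the 4 fallen members with a window (Brca1, Rad54l, Fancb and Chek1) held the E2F letters, and 3 of the 4 held CCAAT. The Chek1 window, chr9:36726609-36726908, lies inside the annotated gene, which starts at 36727065 on the minus strand. The windows of Fanci, Fancl and Xrcc6 also lie inside the annotated genes, and that of Xrcc6 supplied 1 of the 8 members with the E2F letters. For these genes and Chek1, bases before the annotated start were therefore not searched. Rad51c and Lig4 each had 1 window inside the gene and 1 that reached past its annotated start. The kappaB letters bound by NF-kappaB factors such as p52, searched on both strands as GGG, any 3 bases and then TTCC or TCCC, were in 5 members (16.7%), against 14.5% of tested genes and 10.4% of all windows, and in none of the 4. CCGGAAGT, the letters of ETS factors, was in 3 members (10%), against 10.2% of tested genes, and TTTGAA or TTCGAA, the CHR letters of cell-cycle promoters, in 2 (6.67%), against 17.3%; none of the 4 held either. A match is only a run of letters, and a missing match says nothing of whether a factor binds.

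In homologous recombination and the Fanconi pathway, 4 of 19 members fell and 0 rose. The median log2 fold change of the class was -0.65, and 17 had a value below 0. Fancd2 (chr6:113531682-113597017, plus strand) is the protein that the Fanconi core complex tags with ubiquitin at crosslinked DNA. It was at 89.1, 66.5, 54.9 and 111 CPM across WT replicates 1 to 4, and at 17.9, 18.3, 8.24, 28.4 and 28.9 CPM across p52Ki replicates 1 to 5. All p52Ki libraries lay below all WT libraries, and the log2 fold change was -1.99 ± 0.36 (SE, adjusted p = 0.00787), from 80.4 ± 24.9 CPM in WT (SD, n = 4) and 20.3 ± 8.57 CPM in p52Ki (SD, n = 5). 257 bases of its exons overlap Fancd2os on the other strand, and because the library method does not mark strand, reads there cannot be told apart. Fancd2 passed with each of the 9 libraries left out in turn, with an adjusted p of at most 0.0276.

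Fancb (chrX:164980592-164997272, plus strand) is a subunit of the core complex that tags Fancd2. It was found at 24.8, 16.2, 31.9 and 34.2 CPM across WT replicates 1 to 4, and at 2.03, 8.64, 2.099, 12.1 and 4.56 CPM across p52Ki replicates 1 to 5. p52Ki replicates 1, 3 and 5 were under 5 CPM, and no p52Ki library reached the lowest WT library. The log2 fold change was -2.18 ± 0.57 (SE, adjusted p = 0.0345), the lowest of the 38. It passed without WT replicate 2 or p52Ki replicate 4, and missed the threshold without any other library, with adjusted p values from 0.0513 without p52Ki replicate 2 to 0.0887 without WT replicate 4.

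Brca1 (chr11:101488764-101551955, minus strand) is the ubiquitin ligase that promotes resection of the ends. It stood at 119, 64.9, 76.1 and 69.8 CPM across WT replicates 1 to 4, and at 34.6, 35.5, 27.6, 65.1 and 32.8 CPM across p52Ki replicates 1 to 5. WT replicate 1 was high and p52Ki replicate 4 was high, and the latter lay just above WT replicate 2, so the groups overlapped. The log2 fold change was -1.08 ± 0.29 (SE, adjusted p = 0.0409). The call held without p52Ki replicate 4 and was lost without any of the other 8 libraries, with adjusted p values up to 0.123 without WT replicate 1.

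Rad54l (chr4:116094264-116123690, minus strand) encodes a motor protein that helps a broken end invade the intact duplex. It was at 95.03, 141, 134 and 149 CPM across WT replicates 1 to 4, and at 70.1, 82.2, 69.0, 89.9 and 79.7 CPM across p52Ki replicates 1 to 5. WT replicate 1 was the lowest WT library, still above all p52Ki libraries, and the fold change was the smallest of the 7 at -0.73 ± 0.18 (SE, adjusted p = 0.0260). The call held when WT replicate 1 or p52Ki replicate 2 or 4 was left out and was lost without any of the other 6, with adjusted p values up to 0.0848 without WT replicate 4. Its exons share 1184 bases with Lrrc41 on the other strand.

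**Figure D2:**
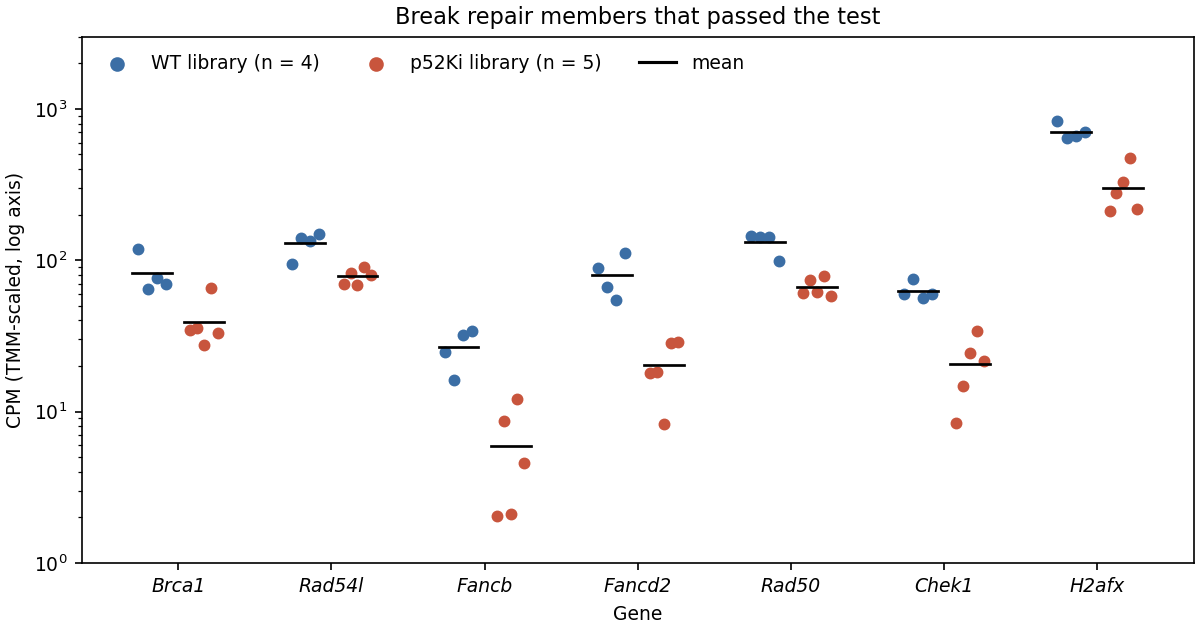
TMM-scaled CPM (log y axis) of the 7 break repair genes that passed the test (x axis), 1 point per library, WT (n = 4) in blue and p52Ki (n = 5) in red, with the mean as a line. The p52Ki points lie below the WT points for 6 genes; for Brca1, p52Ki replicate 4 at 65.1 CPM reaches WT replicate 2 at 64.9 CPM.

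4 members of the class came closest to the threshold without passing. Fanca, a core complex subunit, was at 37.2, 79.4, 91.4 and 71.4 CPM across WT replicates 1 to 4, and at 103, 122, 122, 88.9 and 157 CPM across p52Ki replicates 1 to 5. All p52Ki libraries but replicate 4 exceeded all WT libraries, and the log2 fold change was 0.77 ± 0.26 (SE, adjusted p = 0.103). The Wald test of DESeq2 called it higher (adjusted p = 0.0327), where it called 7.77% of all genes higher and 6.02% lower; the 7 fallen members were called lower there too. Its exons share 920 bases with Zfp276 on the other strand.

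Fanci, the partner that is tagged together with Fancd2, was at 116, 67.7, 83.2 and 94.4 CPM across WT replicates 1 to 4, and at 45.9, 84.3, 59.1, 65.4 and 33.7 CPM across p52Ki replicates 1 to 5. Unlike Fancd2, its groups overlapped, with p52Ki replicate 2 above WT replicates 2 and 3, and the fold change was -0.65 ± 0.27 (SE, adjusted p = 0.182). 921 bases of its exons overlap Polg on the other strand. Brip1, a helicase that binds Brca1, was at 66.0, 70.0, 63.0 and 48.7 CPM across WT replicates 1 to 4, and at 39.3, 30.2, 25.2, 71.6 and 33.7 CPM across p52Ki replicates 1 to 5. p52Ki replicate 4 was the highest of all 9 libraries while the other 4 p52Ki libraries lay below all WT libraries. The fold change was -0.63 ± 0.30 (SE, adjusted p = 0.260), and without p52Ki replicate 4 it was -0.92 and passed (adjusted p = 0.0419). Rbbp8, which encodes CtIP, the protein that starts resection of the ends, was at 66.8, 76.0, 119.7 and 48.4 CPM across WT replicates 1 to 4, and at 52.6, 35.3, 64.9, 49.8 and 61.3 CPM across p52Ki replicates 1 to 5. WT replicate 3 stood high, WT replicate 4 lay within the p52Ki range, and the fold change was -0.56 ± 0.28 (SE, adjusted p = 0.274).

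The other 11 recombination and Fanconi members had adjusted p values of at least 0.281. Fancl, the ubiquitin ligase of the core complex, had a log2 fold change of -0.71, Fancm, the translocase that anchors the complex to DNA, -0.59, and Fancg, another core subunit, 0.56. Bard1, the partner of Brca1, was at -1.38 with an interval from -3.07 to 0.30, so a fall as large as that of Fancd2 and no fall were both within its error. Brca2, which prepares resected ends for strand invasion, was at -0.41, and Palb2, which ties it to Brca1, at -0.21. Rad51c, Xrcc2 and Xrcc3, which act in strand exchange, were at -1.08, -0.65 and -0.20. Rad54b, a relative of Rad54l, was at -0.77, and the helicase Blm at -0.64. Rad54b shares 2068 exonic bases with Fsbp on the same strand, so its counts depend on how shared reads were assigned.

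None of the 8 end joining members passed the test in either direction, against 8.53% of all genes, a share at which a list of 8 can hold none. An unadjusted p under 0.05 was found for 2 of them, against 21.4% of all genes. Their median log2 fold change was -0.07, with 5 of 8 below 0, and the DESeq2, limma-voom and limma-trend tests called none of them either. For 4 of the 8 the 95% interval lay above a 2-fold fall. Parp1, the enzyme that binds breaks and marks them with ADP-ribose chains, was at 802, 940.1, 629 and 690 CPM across WT replicates 1 to 4, and at 438, 648, 552, 635 and 505 CPM across p52Ki replicates 1 to 5. p52Ki replicates 2 and 4 lay just above WT replicate 3, and the log2 fold change was -0.46 ± 0.16 (SE, adjusted p = 0.0994). It was the most abundant member of the class, with at least 2326 counts in every library.

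Dclre1c encodes Artemis, the nuclease that opens hairpin ends during antibody gene assembly. It was at 25.99, 39.3, 38.8 and 44.6 CPM across WT replicates 1 to 4, and at 94.8, 48.9, 41.0, 51.0 and 54.3 CPM across p52Ki replicates 1 to 5. p52Ki replicate 1 stood far above the other libraries and p52Ki replicate 3 lay within the WT range, with a fold change of 0.64 ± 0.29 (SE, adjusted p = 0.221). Xrcc6, a subunit of the Ku ring that encircles DNA ends, was at 90.8, 117, 102 and 136 CPM across WT replicates 1 to 4, and at 137, 157, 125.6, 109 and 156 CPM across p52Ki replicates 1 to 5. The groups overlapped widely, the fold change was 0.29 ± 0.18 (SE, adjusted p = 0.383), and its interval from -0.09 to 0.68 was the narrowest that lay around 0 in the class.

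Prkdc, the catalytic subunit of the DNA-dependent protein kinase, was at 78.0, 51.9, 82.5 and 46.2 CPM across WT replicates 1 to 4, and at 76.1, 25.9, 58.6, 23.1 and 51.1 CPM across p52Ki replicates 1 to 5. p52Ki replicates 2 and 4 were the lowest and p52Ki replicate 1 lay among the higher WT libraries, and the fold change was -0.46 ± 0.36 (SE, adjusted p = 0.524). The ligation factors Lig4, Xrcc4 and Nhej1 had log2 fold changes of -0.22, 0.00 and 0.05, and Xrcc5, the other Ku subunit, had -0.15. Xrcc4 and Nhej1 averaged under 15 CPM in both genotypes, and their intervals, from -1.13 to 1.13 and from -0.99 to 1.10, allowed a 2-fold change in either direction or close to it. 344 exonic bases of Xrcc6 overlap Desi1, and 357 of Dclre1c overlap Suv39h2, both on the other strand.

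Among the 11 sensing and signalling members 3 fell and 0 rose; their median log2 fold change was -0.57, and 8 were below 0. H2afx (chr9:44334694-44336077, plus strand) encodes the histone variant that is phosphorylated around a break. It was at 834, 639, 663 and 700.4 CPM across WT replicates 1 to 4, and at 210.1, 279, 330.4, 476 and 217 CPM across p52Ki replicates 1 to 5. Every p52Ki library lay below every WT library, with p52Ki replicate 4 the closest, and the means were 709 ± 87.3 CPM in WT (SD, n = 4) and 302 ± 109 CPM in p52Ki (SD, n = 5), a log2 fold change of -1.23 ± 0.22 (SE, adjusted p = 0.00818). 141 exonic bases overlap Gm44335 on the other strand.

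Rad50 (chr11:53649519-53707319, minus strand) is the zinc-hook ATPase of the complex with Mre11a and Nbn that binds the ends first. It was at 144, 142, 143 and 98.4 CPM across WT replicates 1 to 4, and at 60.8, 74.3, 61.9, 78.9 and 58.2 CPM across p52Ki replicates 1 to 5. The p52Ki libraries kept within a narrow range, below the lowest WT library, and the log2 fold change was -0.98 ± 0.18 (SE, adjusted p = 0.00853). Its partners Mre11a and Nbn did not pass, with -0.57 ± 0.37 (SE, adjusted p = 0.420) and -0.62 ± 0.37 (SE, adjusted p = 0.372). Nbn was at 59.9, 23.4, 59.7 and 33.6 CPM across WT replicates 1 to 4, and at 13.5, 39.7, 32.0, 29.0 and 29.3 CPM across p52Ki replicates 1 to 5. WT replicates 2 and 4 lay within the p52Ki range of Nbn, and for Mre11a WT replicate 1, at 137 CPM, stood far above the other 8 libraries, at 31.9 to 69.1 CPM.

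Chek1 (chr9:36708482-36727065, minus strand) encodes the kinase that acts below Atr and halts the cell cycle when replication stalls. It was at 59.5, 75.0, 56.3 and 59.9 CPM across WT replicates 1 to 4, and at 8.42, 14.6, 24.2, 34.3 and 21.5 CPM across p52Ki replicates 1 to 5. The WT libraries lay close together, all above p52Ki, and the p52Ki libraries spread more widely; the log2 fold change was -1.60 ± 0.35 (SE, adjusted p = 0.0183). Chek2, the kinase below Atm, was at 30.3, 36.4, 34.6 and 46.9 CPM across WT replicates 1 to 4, and at 34.4, 18.5, 17.6, 13.3 and 16.1 CPM across p52Ki replicates 1 to 5. p52Ki replicate 1 lay among the WT libraries and the other 4 p52Ki libraries lay below them, with a fold change of -0.89 ± 0.33 (SE, adjusted p = 0.127); without p52Ki replicate 1 it was -1.18 and passed (adjusted p = 0.0448). H2afx, Rad50 and Chek1 each passed with any single library left out, with adjusted p values of at most 0.0251, 0.0290 and 0.0466.

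Topbp1, which activates Atr, was at 138, 125.5, 94.7 and 159 CPM across WT replicates 1 to 4, and at 82.2, 109, 78.2, 102 and 78.9 CPM across p52Ki replicates 1 to 5. WT replicate 3 was below p52Ki replicates 2 and 4, and the log2 fold change was -0.52 ± 0.19 (SE, adjusted p = 0.127). Atr, the kinase that senses single-stranded DNA, was at 15.2, 2.49, 2.28 and 18.2 CPM across WT replicates 1 to 4, and at 15.2, 36.7, 26.2, 25.1 and 18.0 CPM across p52Ki replicates 1 to 5. The WT libraries split into replicates 2 and 3 under 3 CPM and replicates 1 and 4 over 15 CPM, of which replicate 4 lay within the p52Ki range and replicate 1 at its lower edge, and the fold change of 1.34 ± 0.63 (SE, adjusted p = 0.247) was the highest of the 38 and carried the widest error of its class. 1188 exonic bases of Atr overlap genes on the other strand. Atm, Mdc1, which reads the phosphorylated histone, and Trp53bp1, which holds back resection and favours end joining, had fold changes of -0.05, 0.05 and 0.19; the interval of Trp53bp1, from -0.36 to 0.74, lay above a 2-fold fall.

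The classes were also followed as the mean log2 CPM of their members in each library, a description with no test. The recombination and Fanconi mean was 5.23, 5.38, 5.42 and 5.45 across WT replicates 1 to 4, against 4.11, 4.78, 4.47, 5.13 and 4.55 across p52Ki replicates 1 to 5. The signalling mean was 6.03, 5.88, 5.86 and 6.09 in WT and 5.23, 5.72, 5.61, 5.79 and 5.54 in p52Ki. Both were lower in every p52Ki library than in every WT library, by 0.76 and 0.39 between the group means. The end joining mean was 5.72, 5.37, 5.46 and 5.58 in WT and 5.66, 5.49, 5.36, 5.58 and 5.38 in p52Ki, which overlapped, with group means 0.04 apart. Whether the classes differ from each other was not tested.

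**Figure D3:**
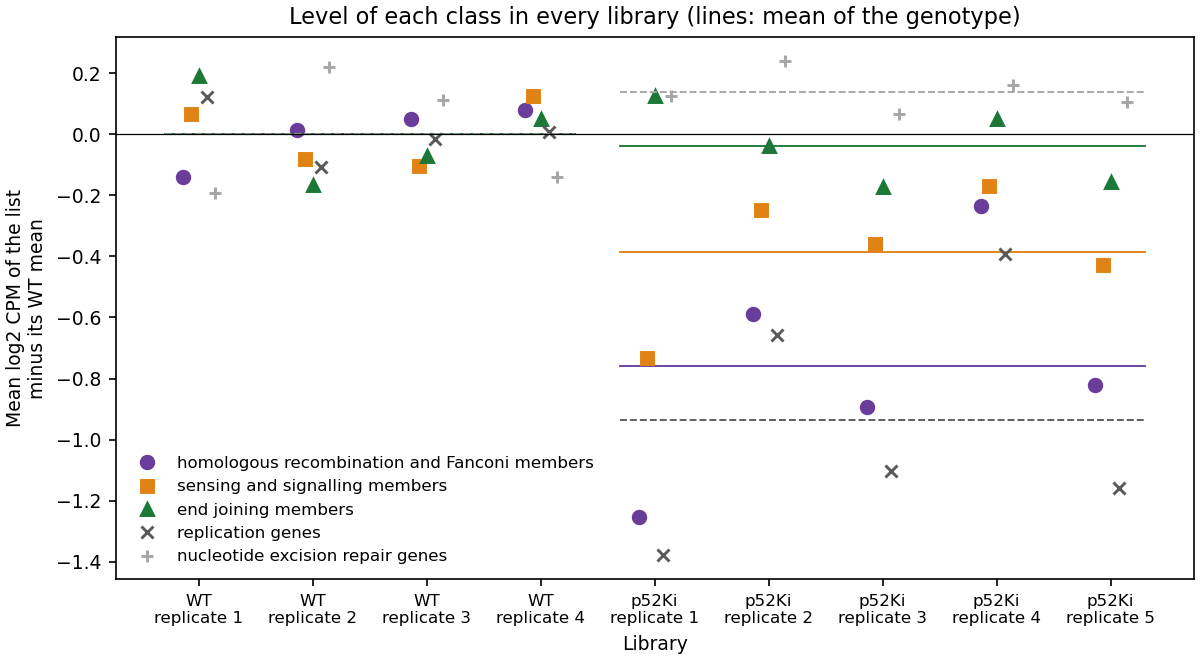
Mean log2 CPM of each class of members in every library (x axis), minus its WT mean (y axis), beside 50 replication and 20 nucleotide excision repair genes; lines are genotype means. The recombination, signalling and replication points of p52Ki all lie below 0, p52Ki replicate 1 lowest and replicate 4 highest, while end joining and excision repair points stay within 0.25 of 0.

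The order of the p52Ki libraries was shared. p52Ki replicate 4 was the highest p52Ki library for 6 of the 7 members that fell, and p52Ki replicates 1 and 3 were each the lowest for 3. The same library had the highest p52Ki mean log2 CPM of the 50 replication genes (6.99, the others 6.004 to 6.73, WT 7.27 to 7.502) and of the 30 mitosis genes (7.39, the others 5.78 to 6.82, WT 7.73 to 7.99). It also had the highest p52Ki sum of the 5 germinal centre B cell markers S1pr2, Gcsam, Mef2b, Bcl6 and Fas, at 1143 CPM against 474.7 to 746.9 CPM in the others and 1753 to 2225 CPM in WT; all 5 were detected in every library and 4 of them fell. The part of these genes or of that library in the fall of the members was not tested. Without p52Ki replicate 4, 8 members passed, the 7 and Brip1.

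Genes of other lists were set beside the members. Of the replication genes 24 of 50 fell and 0 rose (median log2 fold change -0.87), among them the clamp loader subunit Rfc1 at -1.05 ± 0.14 (SE, adjusted p = 0.00253) and the histone mRNA binding protein Slbp at -0.91 ± 0.15 (SE, adjusted p = 0.00519). Of the mitosis genes 21 of 30 fell and 0 rose, median -1.27, such as Kif20a at -1.63 ± 0.27 (SE, adjusted p = 0.00518) and Ndc80 at -1.55 ± 0.26 (SE, adjusted p = 0.00597). The median of the recombination and Fanconi members, -0.65, was nearer to 0 than either, and 9 of the 38 members had a fold change below the replication median. Nucleotide excision repair, which removes bulky lesions rather than breaks, had 0 of 20 genes called, against 8.53% of all genes, and a median of -0.04. DESeq2 called 1 of its genes. At an unadjusted p under 0.05 there were 5 of the 20, against 21.4% of all genes. Of 15 tested p53 target genes 1 rose, Btg2 at 0.90 ± 0.21 (SE, adjusted p = 0.0201), and 0 fell, with a median of 0.39; Btg2 missed the threshold without WT replicate 2 (adjusted p = 0.0553).

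Further break repair genes outside the 38 were counted in the same way, with 9 of 52 tested lower and 1 higher and a median of -0.41. Those lower included genes of resection, Exo1 and Dna2, which digest the ends, at -1.43 ± 0.31 (SE, adjusted p = 0.0180) and -1.70 ± 0.37 (SE, adjusted p = 0.0171). Rpa1, the large subunit of the protein that coats single-stranded DNA, was at -0.99 ± 0.20 (SE, adjusted p = 0.0135), and Xrcc1, the scaffold of single-strand break repair and the back-up end joining route, at -0.83 ± 0.13 (SE, adjusted p = 0.00456). On the Fanconi side Ube2t, the enzyme that hands ubiquitin to Fancd2, Usp1, which removes it, and Slx4, a nuclease scaffold, were at -1.18 ± 0.26 (SE, adjusted p = 0.0180), -1.58 ± 0.35 (SE, adjusted p = 0.0187) and -1.09 ± 0.26 (SE, adjusted p = 0.0241). The fork protection partners Timeless and Tipin completed the 9, with -1.10 ± 0.31 (SE, adjusted p = 0.0466) and -1.05 ± 0.28 (SE, adjusted p = 0.0388); these 2 were named after their values were seen. Without WT replicate 4 this list had 6 calls, 5 lower and 1 higher. The calls lost were Exo1 and Ube2t (adjusted p = 0.0553 for both), Slx4 (0.0721), Timeless and Tipin, while Rif1 was gained. Timeless and Tipin were not followed singly in the other fits with a library left out. Slx4 was also lost without WT replicate 1 (adjusted p = 0.0755) and without p52Ki replicate 1 (0.0623), 3 (0.0616) or 5 (0.0584).

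Polm, the polymerase that fills ends in end joining, was the 1 that rose. It was at 45.0, 47.6, 66.0 and 50.7 CPM across WT replicates 1 to 4, and at 135, 104, 107, 85.0 and 175 CPM across p52Ki replicates 1 to 5, every p52Ki library above every WT library, with a log2 fold change of 1.21 ± 0.24 (SE, adjusted p = 0.0110). Rad52, Polq and Rif1 did not pass, with 0.09 ± 0.40 (SE, adjusted p = 0.933), -0.92 ± 0.51 (SE, adjusted p = 0.333) and -0.89 ± 0.28 (SE, adjusted p = 0.0734). Rif1 was called lower by the Wald test of DESeq2 (adjusted p = 0.0368) and by edgeR without WT replicate 4 (adjusted p = 0.0481).

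Partners in a complex or in opposed steps were compared within each library as a log2 ratio of CPM, in 14 pairs. The test was an exact two-sided permutation over every split of the libraries into 4 and 5, with the smaller tail doubled. A ratio with no overlap between the genotypes gets the smallest p that this test can give, 0.0159. No ratio passed after Benjamini-Hochberg adjustment over the 14 pairs, and 5 had an unadjusted p under 0.05. A pair alone at the smallest p could not pass this adjustment, so a miss does not show that a ratio is unchanged. Topbp1 over Atr was 3.15, 5.49, 5.20 and 3.11 across WT replicates 1 to 4, against 2.41, 1.57, 1.57, 2.00 and 2.11 across p52Ki replicates 1 to 5. All p52Ki ratios lay below all WT ratios, a difference of -2.31 (exact p = 0.0159, adjusted p = 0.111). The highest ratios, 5.49 and 5.20, were in WT replicates 2 and 3, where Atr was at only 2.49 and 2.28 CPM, so the size of this difference rests partly on low counts. Rbbp8 over Trp53bp1, which act against each other in resection, was 0.34, -0.47, -0.21 and -0.66 across WT replicates 1 to 4, against -0.76, -1.59, -0.94, -1.13 and -0.74 across p52Ki replicates 1 to 5. Again all p52Ki ratios lay below all WT ratios, a difference of -0.78 (exact p = 0.0159, adjusted p = 0.111).

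Brca1 over Trp53bp1, the other opposed pair, was 1.17, -0.69, -0.87 and -0.14 across WT replicates 1 to 4, against -1.36, -1.58, -2.17, -0.74 and -1.63 across p52Ki replicates 1 to 5. p52Ki replicate 4 reached into the WT range, and the difference was -1.37 (exact p = 0.0317, adjusted p = 0.111). Trp53bp1 shares 2130 exonic bases with Tubgcp4 on the other strand. Mdc1 over H2afx differed by 1.46 (exact p = 0.0317, adjusted p = 0.111), with WT replicate 1 far below the rest at -6.05. Fancd2 over Fanci was -0.38, -0.02, -0.60 and 0.23 across WT replicates 1 to 4, against -1.35, -2.18, -2.80, -1.20 and -0.22 across p52Ki replicates 1 to 5. p52Ki replicate 5 lay within the WT range and the other 4 below it, a difference of -1.36 (exact p = 0.0476, adjusted p = 0.133).

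**Figure D4:**
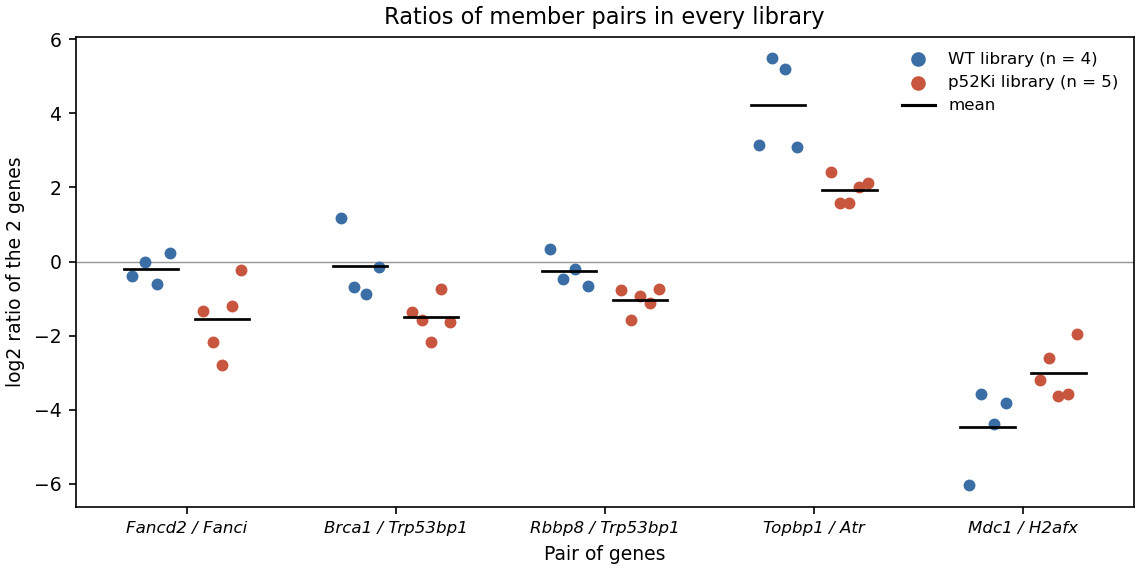
Log2 ratio of CPM (y axis) of the 5 member pairs (x axis) with an unadjusted exact p under 0.05, 1 point per library, WT (n = 4) in blue and p52Ki (n = 5) in red, with the mean as a line. Topbp1 over Atr and Rbbp8 over Trp53bp1 do not overlap between genotypes. The highest points of Topbp1 over Atr are WT replicates 2 and 3, with Atr at 2.49 and 2.28 CPM. None of the 14 pairs passed the adjustment, which a pair alone at the smallest possible p cannot pass.

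The other 9 pairs had exact p values of at least 0.0952. Within the complexes, Mre11a and Nbn over Rad50 differed by 0.54 and 0.38, Brca1 over Bard1 by 0.64, Brca2 over Palb2 by -0.34, Fanca over Fancg by 0.13, Xrcc5 over Xrcc6 by -0.33 and Xrcc4 over Lig4 by 0.39. Of the kinases, Atm over Atr differed by -1.86 and Chek1 over Chek2 by -0.79. Each of these 9 differences was smaller than the SD of its ratio in the more variable genotype. Some exceeded the SD in the other genotype. For Atm over Atr the SD was 2.01 in WT and 0.35 in p52Ki, and for Chek1 over Chek2 it was 0.31 in WT and 1.25 in p52Ki.

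Levels of different genes were compared as CPM per kilobase of merged exons. In WT, H2afx was highest at 512 and Parp1 next at 145, followed by Xrcc6 at 24.9 and Rad50 at 24.5, which did not differ beyond their spread (SD 4.41 and 4.13). At the low end were Bard1 at 2.64, Xrcc2 at 2.45 and Atr at 0.404, the last over merged exons of 23629 bases. The median of the 38 was 8.43 in WT and 5.24 in p52Ki. In p52Ki H2afx was still first at 218 and Parp1 second at 105; Xrcc6 was at 30.6 and Rad50 at 12.4. By rank, Fancd2 went from 14 to 32, Fancb from 17 to 35 and Chek1 from 10 to 23. Fanca went from 22 to 4 and Fancg from 18 to 5, though neither passed the test. Their p52Ki levels, 13.6 (SD 2.92) and 13.0 (SD 6.41), did not differ beyond their spread from Xrcc5 at 12.8 (SD 4.52), so such ranks are loose.

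**Figure D5:**
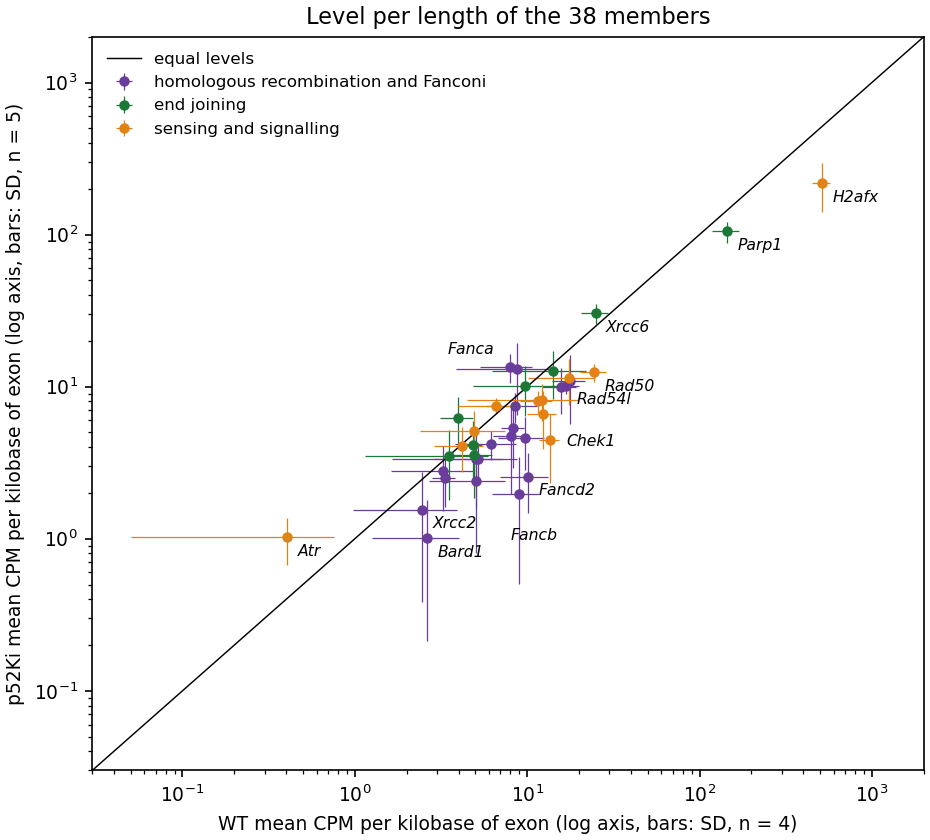
Mean CPM per kilobase of merged exons of each member in WT (x axis, n = 4) and p52Ki (y axis, n = 5), both log axes, with SD bars (lower arms cut at 95% of the mean) and the line of equal levels. H2afx and Parp1 stand apart at the top; Fancb, Fancd2 and Chek1 lie furthest below the line among the members that passed.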

How the data were processed

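The authors deposited raw counts per gene, with no normalization, and log2 CPM values for the 12849 genes that pass the filter below. The deposited log2 values equalled the log CPM of edgeR from those counts (TMM factors, prior count 2) within 4.97e-14. The build GRCm38 and the tools featureCounts (Subread 1.6.2), HISAT2 2.1.0 and SAMtools 1.8 are named per the submitters' processing notes; the sources used here do not give the annotation release, strand setting or read filters. Per the labels' protocols, libraries were made with SMART-Seq v2 and Nextera XT, which mark neither strand nor molecule, so duplicated reads are not independent.

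Differences were tested on the counts with edgeR 4.0.16 in R 4.3.3 (filterByExpr, TMM, robust quasi-likelihood F test, no covariate, all 9 libraries), with Benjamini-Hochberg adjustment across the genes tested. The SE was taken as the log2 fold change divided by the root of F. In that fit the biological coefficient of variation was 0.567. The method was tested on simulated data. Alternatives used DESeq2 1.42.0, limma 3.58.1 and mgcv 1.9.3. Replicate numbers gave no sign of pairing the samples: the deviations of same-numbered libraries correlated at -0.04 to -0.01, none over 0.1. Such values cannot exclude that same-numbered samples were handled together. Positions and merged exon lengths are from GENCODE for GRCm38, in which all 55536 identifiers were found.

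The members and all gene lists were chosen with earlier results of these data known. Values in every library are given for members that passed and for the 4 of smallest p that missed it in each class. Of the other break repair list up to 8 called genes of smallest p were named, with Rad52, Polq, Exo1 and Rif1 whatever their result, and of the remaining lists the 2 called genes of smallest p. Some genes of these lists are not reported here.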

Additional observations from a re-analysis of the deposited data

Results flagged for a closer look

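Each member was screened in each genotype for a library far from the others on the log2 scale, 76 groups in all, and 2 stood out; chance alone gives about 1 in 20. Fancm, the translocase of the Fanconi pathway, was high in p52Ki replicate 4, at 66.8 CPM against 24.3 to 30.7 CPM in the other p52Ki libraries, a gap of 0.771 of the whole range. Rad50 was low in WT replicate 4, at 98.4 CPM against 141.8 to 143.6 CPM in the other WT libraries, a gap of 0.967 of the range, since those 3 lay very close together. Rad50 passed the edgeR test without that library too.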

How the results depend on the processing

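The count of 7 fallen members was the same with DESeq2 size factors, no filter, a filter of 10 CPM in 4 libraries, no immunoglobulin and T cell receptor genes, limma-voom, limma-trend, thinned libraries and a correction for GC content and length. The DESeq2 Wald test gave 8, with Fanca higher. The replicate number as a block, though the numbers gave no sign of pairing, gave 129 calls over all genes against 1096 without it. No WT library shares its number with p52Ki replicate 5, so that library adds nothing to the genotype difference in the block fit. The block also leaves less information for estimating the spread. Of the 129 calls 75.2% were higher, against 52.6% of the 1096. The block fit called 1 member (Fancd2): 1 in recombination, 0 in signalling, 0 of the other break repair genes, 2 of replication, 1 of mitosis and 0 of p53 targets. DESeq2 called 1766 genes, 1 of excision repair and 2 p53 targets; limma-voom, limma-trend and the 10 CPM filter each called 2 p53 targets. With 1 library left out in turn, calls ranged from 625 to 1108 over all genes, 4 to 8 members, 1 to 5 in recombination, 3 to 4 in signalling, 6 to 14 other break repair genes, 13 to 29 replication, 12 to 28 mitosis and 0 to 2 p53 genes; end joining and excision repair had 0 each time. The cause of these shifts was not tested.

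Some values near 0 changed sign. Xrcc4 was at 0.0204 with DESeq2 size factors, 0.0134 without the filter, 0.0311 with the 10 CPM filter, 0.0112 without immunoglobulin genes, 0.19 with the replicate block, 0.0205 with DESeq2, 0.19 with limma-voom, 0.0727 with limma-trend, 0.14 after thinning and 0.0687 after the GC and length correction. With 1 library left out, Xrcc4 ranged from -0.29 to 0.57, Palb2 from -0.48 to 0.0498, Xrcc5 from -0.39 to 0.25, Nhej1 from -0.11 to 0.49, Atm from -0.18 to 0.12, Trp53bp1 from -0.0065 to 0.47, Mdc1 from -0.24 to 0.29 and Rad52, of the other break repair genes, from -0.17 to 0.31. The 95% interval included a 2-fold fall in 19 of the 31 members that did not pass.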
